A study of Homo sapiens with 18 samples.

Results

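A list of 31 genes known as targets of the transcription factor p53 was examined as measured on 18 arrays of WiDr and HT29, established cell lines of human colorectal cancer. The genes were given by symbol, with earlier results of these data known, and each was read through the probe set with the highest mean over the arrays among those tied to that symbol alone. By this rule 29 of the 31 genes were measured, out of 18132 genes in all, and BTG2 and FDXR were not analysed here. There were 6 groups of 3 arrays. In WiDr these were vehicle, AZ628, a control short hairpin (sh) RNA and an shRNA that targets IKKα, and in HT29 vehicle and AZ628. Both lines are known to carry an activating BRAF mutation, and WiDr is known as a derivative of HT29. AZ628 is an inhibitor of RAF kinases, and IKKα, encoded by CHUK, is a kinase of the NF-κB pathway. By their labels the shRNA groups were transduced WiDr cells, with no AZ628 named, and the other groups had no shRNA named. The labels gave neither dose nor time of AZ628, named no vehicle, and did not say whether transduced cells were a pool or a clone. The study asked, by its title, whether tumour formation driven by BRAF depends on IKKα.

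The p53 protein is activated by DNA damage and other stress, binds DNA as a tetramer at a site made of paired half-sites, and raises the transcription of genes for cell cycle arrest, DNA repair, cell death and metabolic control. Among its targets is MDM2, whose product marks p53 for degradation, so that the pathway restrains itself. Many of these genes also have activators other than p53. They are called p53 targets below for the list they belong to, and no p53 binding or protein was measured.

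The genes differ in what lies at their start. RefSeq promoter windows of the GRCh38.p14 build, from 250 bases before to 50 bases after an annotated start, were matched by symbol for 26 of the 31 genes, with 39 windows in all. They were searched on both strands for the 10-base p53 half-site consensus, and only matches at all 10 bases were counted. A half-site was found in 6 of the 26 genes (23.1%), against 8.06% of all 27305 genes with a window. Genes with more windows have more places to match, and by window the shares were 15.4% of the 39 and 6.63% of all windows. Paired half-sites with a spacer of 0 to 13 bases were found in 1 window of the list, that of the repair gene DDB2, and in 10 of all 35116 windows (0.0285%). The DDB2 sequence from 150 bases before to 30 bases after an annotated start is shown because it alone holds the pair. It lies at chr11:47214824-47215003 on the plus strand, with the half-sites in capitals. The upstream half-site begins 5 bases after that annotated start, and 1 base separates it from the next. Another annotated DDB2 window, at chr11:47214204-47214503, held no half-site.

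DDB2: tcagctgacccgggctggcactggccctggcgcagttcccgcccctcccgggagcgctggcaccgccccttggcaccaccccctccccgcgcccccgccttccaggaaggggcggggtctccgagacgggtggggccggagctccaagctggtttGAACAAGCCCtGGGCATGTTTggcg

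A single half-site was found for PLK2, SESN1, FAS, AEN and FDXR. The stretches of the measured genes follow with 20 bases on each side of the half-site, which is again in capitals. They lie at chr5:58460189-58460238 (minus strand), chr6:109009008-109009057 (minus strand), chr10:88991289-88991338 (plus strand) and chr15:88621286-88621335 (plus strand), and the half-sites begin at -132, -49, -122 and -34, counted in bases from a start of the gene. For SESN1 and FAS this was 1 of 3 annotated windows. A match of letters is not evidence of binding. A window without a match says nothing of sites elsewhere in the gene, or of sites that depart from the consensus.

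PLK2: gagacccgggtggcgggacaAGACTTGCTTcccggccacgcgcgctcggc
SESN1: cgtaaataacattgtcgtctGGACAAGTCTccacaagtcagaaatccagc
FAS: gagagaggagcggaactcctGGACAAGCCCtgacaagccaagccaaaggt
AEN: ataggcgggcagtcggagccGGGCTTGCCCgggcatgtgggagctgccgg

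Arrays of a group correlated at 0.9971 to 0.9985 over all genes. CHUK read 7.23 to 7.68 on the IKKα shRNA arrays and at least 8.90 on every other array, a change of -2.12 against control shRNA (SE 0.12, adjusted p = 4.11e-10). The epithelial markers EPCAM (13.20 in WiDr and 13.24 in HT29 with vehicle), CDH1, KRT8, KRT18 and KRT20 gave log2 signals above 10 in every group, while the group means were 6.10 to 7.07 for CDX2, 5.30 to 5.71 for CDX1 and 4.91 to 5.65 for GPA33. With AZ628 in WiDr KRT20 changed by -1.22 and VIL1 by 0.98, and with IKKα shRNA VIL1 changed by -1.16. Of 8 fibroblast markers 2 rose with IKKα shRNA, LUM by 2.84 and COL3A1 by 0.50, and the summed linear signal of all 8 was 237 to 258 there and 163 to 167 with control shRNA. LUM also rose with AZ628, by 1.25 in WiDr and 1.77 in HT29, while COL1A2 fell in WiDr (-0.23) and FAP in HT29 (-0.80), and the fibroblast sums were 186 to 202 against 168 to 202 and 227 to 253 against 190 to 207 with vehicle. Among 5 endothelial markers TEK rose with IKKα shRNA (1.20), with sums of 259 to 296 against 219 to 223, and in WiDr with AZ628 (0.35), with overlapping sums. Of 6 blood markers CD14 fell in all 3 comparisons (-1.25 with IKKα shRNA), whereas PTPRC had group means of 3.10 to 3.31 and LYZ of 13.63 to 14.06, so that LYZ makes up most of the summed signal of that list. Their part in the results below was not tested. In such bulk samples, fewer cells with a transcript and less of it per cell cannot be told apart.

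All values are log2 signals of the authors' table. A change is the difference of group means with its standard error (SE), and a gene is said to rise or fall where the adjusted p of limma was under 0.05 over all 18132 genes. No label says that the 3 arrays of a group were separate cultures, so a p-value here covers the spread among arrays, which may be technical. No filter on low signals was used, so all 29 genes were tested.

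The p53 targets did not move as a block with either perturbation. With AZ628 in WiDr 16 of 29 rose and 9 fell, where 23.4% of all genes rose and 21.1% fell. With AZ628 in HT29 15 rose and 9 fell, against 22.5% and 21% of all genes. Both counts of falls with AZ628 include TIGAR, whose other probe set rose, as given below. With IKKα shRNA 7 rose and 11 fell, against 15.9% and 19%. The medians of the 29 changes were 0.38, 0.24 and -0.05 in this order, and those of all genes -0.00054, 0.0048 and 0.02. Changes of at least 2-fold were seen in 9 genes with AZ628 in WiDr, 10 in HT29 and 3 with IKKα shRNA, where 8.68%, 7.25% and 3.77% of all genes changed that far. The range of the changes was wide: from -2.41 to 4.19 with AZ628 in WiDr, from -2.07 to 3.62 in HT29 and from -1.09 to 1.71 with IKKα shRNA.

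**Figure D1:**
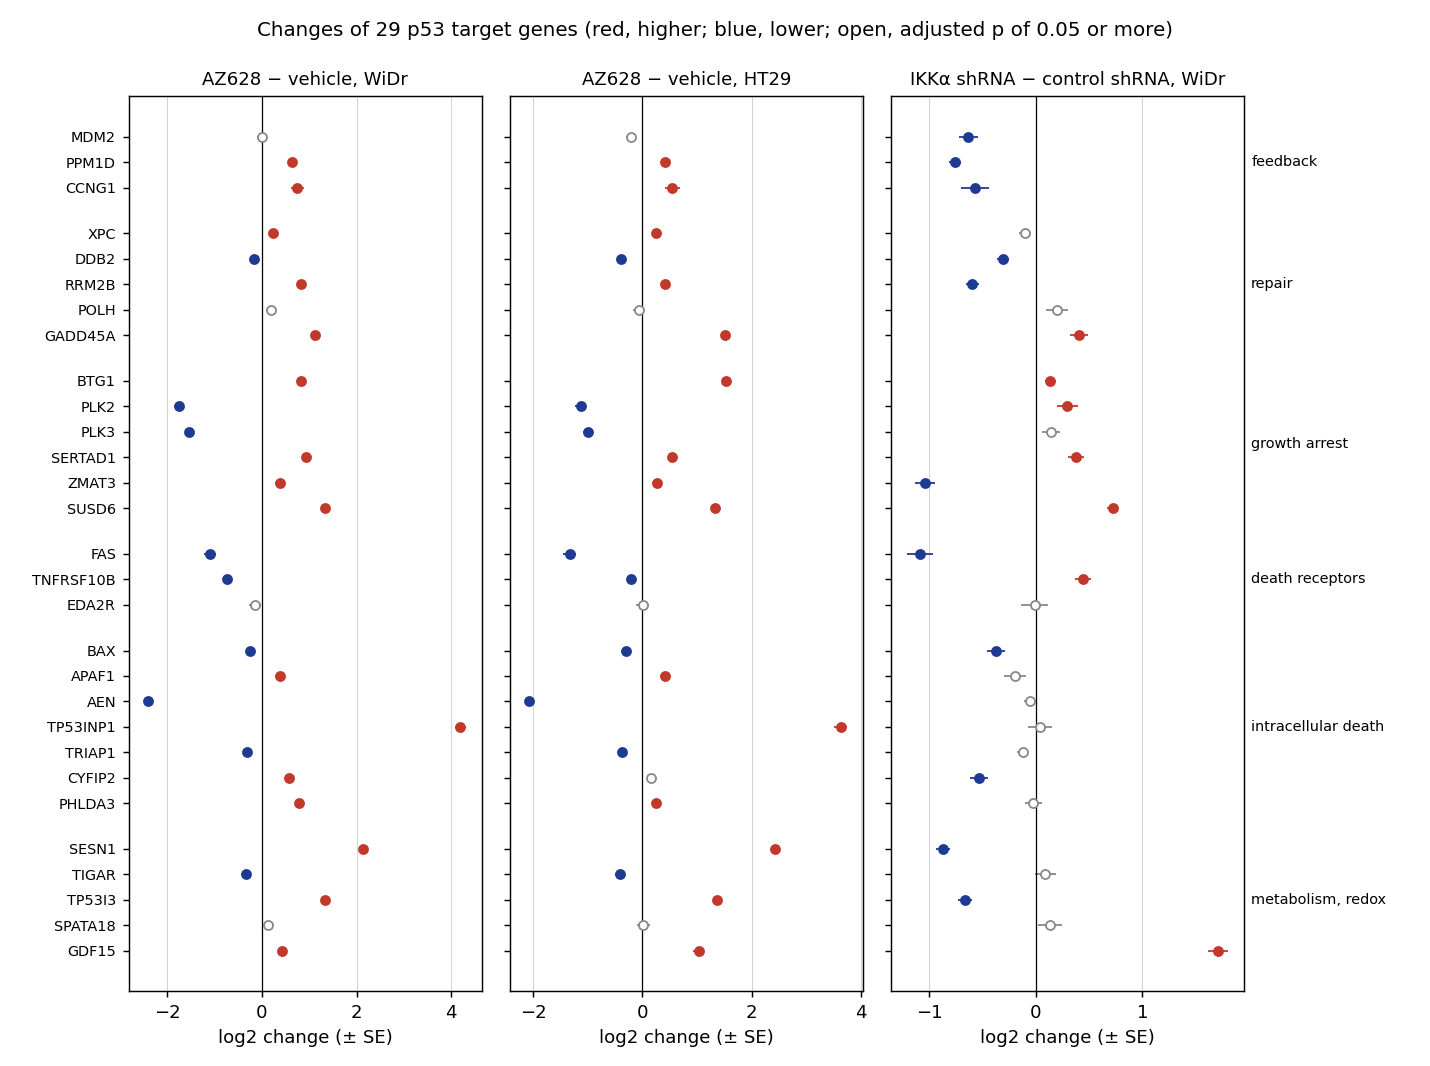
Log2 change (horizontal axis, ± SE) of the 29 measured p53 target genes in the 3 treatment comparisons, grouped by role. Red genes rose, blue genes fell and open symbols did not pass. TP53INP1 and SESN1 lie far to the right and AEN far to the left with AZ628 in both lines, and GDF15 lies furthest to the right with IKKα shRNA. The horizontal axes differ in scale.

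The 3 feedback genes did not rise together. MDM2, the ubiquitin ligase that holds p53 down, read 7.51, 7.50 and 7.55 in WiDr with vehicle and 7.60, 7.54 and 7.40 with AZ628, a difference of -0.0053 (adjusted p = 0.973). In HT29 it differed by -0.21 (adjusted p = 0.0672, and 0.0449 with quantile normalization again or 0.0277 without AZ628 replicate 3). With IKKα shRNA MDM2 read 6.92, 6.73 and 7.06 against 7.55, 7.62 and 7.45 with control shRNA, so that the groups did not overlap, and the change was -0.63 (SE 0.087, adjusted p = 1.48e-05). The value was -0.20 as the mean of its 11 probe sets, most of which had low signals.

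PPM1D, the phosphatase WIP1 that removes damage-dependent phosphates from p53 and its kinases, moved both ways. It read 8.48, 8.39 and 8.42 with vehicle and 9.05, 9.15 and 8.98 with AZ628 in WiDr, and 8.72, 8.67 and 8.68 and 9.12, 9.02 and 9.18 in HT29, where all treated arrays were above all vehicle arrays. The rises were 0.63 (SE 0.058) and 0.42 (SE 0.058), of which the first was 0.37 without probe sets that can bind several transcripts. With IKKα shRNA it read 7.92, 7.81 and 7.82, below control shRNA at 8.62, 8.58 and 8.64, a change of -0.76 (SE 0.058, adjusted p = 1.23e-08). The IKKα shRNA arrays had the lowest PPM1D signals of the series.

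CCNG1, cyclin G1, which brings a phosphatase to MDM2, followed the same pattern. It read 11.29, 10.99 and 11.18 with vehicle and 11.99, 12.01 and 11.71 with AZ628 in WiDr, a rise of 0.75 (SE 0.13). In HT29 it read 10.70, 11.09 and 10.86 and 11.44, 11.19 and 11.65, a rise of 0.55. With control shRNA it read 11.45, 11.31 and 11.46 and with IKKα shRNA 10.75, 10.70 and 11.06, a change of -0.57 (adjusted p = 0.00206). Its 5 probe sets all passed in these directions.

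Of the 5 repair genes, 3 rose and 1 fell with AZ628 in each line. RRM2B, the p53-inducible subunit of ribonucleotide reductase that supplies nucleotides for repair, read 8.28, 8.21 and 8.35 with vehicle and 9.10, 9.17 and 9.05 with AZ628 in WiDr. In HT29 it read 8.14, 8.30 and 8.26 and 8.62, 8.62 and 8.71. The rise was 0.82 (SE 0.06) in WiDr and 0.42 (SE 0.06) in HT29. With IKKα shRNA RRM2B fell from 8.27, 8.34 and 8.25 to 7.72, 7.64 and 7.72, a change of -0.60 (adjusted p = 3.44e-07). With its 9 probe sets averaged, most of them dim, the changes were 0.35, 0.13 (adjusted p = 0.065) and -0.13 (adjusted p = 0.0909).

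GADD45A, a stress protein that acts in repair and in arrest before mitosis, rose in all 3 comparisons. It went from 9.84, 9.93 and 10.07 to 11.23, 10.87 and 11.12 in WiDr with AZ628 and from 9.57, 9.62 and 9.75 to 11.14, 11.07 and 11.27 in HT29, rises of 1.12 (SE 0.085) and 1.51 (SE 0.085, 2.85-fold). Under IKKα shRNA it read 10.45, 10.50 and 10.50 against 10.06, 10.11 and 10.06, a rise of 0.41 (adjusted p = 0.000906). The AZ628 arrays stood above all others of the series.

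The nucleotide excision repair genes changed little. XPC, which finds the lesion, rose by 0.24 in WiDr and 0.24 in HT29 with AZ628 and differed by -0.10 with IKKα shRNA (adjusted p = 0.12). DDB2, which recognises ultraviolet damage and whose promoter is shown above, read 8.01, 7.97 and 8.06 with vehicle and 7.66, 7.58 and 7.60 with AZ628 in HT29, a change of -0.40 (SE 0.053). In the IKKα shRNA group it read 7.48, 7.65 and 7.59 against 7.85, 7.90 and 7.88, a change of -0.31. In WiDr the AZ628 change of DDB2 was -0.16 (adjusted p = 0.0178). It did not pass as the mean of its probe sets (-0.078, adjusted p = 0.205), nor when AZ628 replicate 1 or vehicle replicate 2 was left out (adjusted p = 0.0644 and 0.0519). POLH, a polymerase that copies past lesions, differed by 0.20, -0.063 and 0.20 and passed in none of the 3. In WiDr with AZ628 another of its probe sets rose (0.38, adjusted p = 0.0076), and without control shRNA replicate 2 its IKKα shRNA change was 0.31 (adjusted p = 0.026).

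Among the 6 measured growth arrest genes, 4 rose and 2 fell with AZ628 in each line. The 2 that fell were the polo-like kinases, which act in stress checkpoints. PLK2 read 12.15, 12.08 and 12.16 with vehicle and 10.54, 10.12 and 10.45 with AZ628 in WiDr, and 10.62, 10.83 and 10.86 and 9.75, 9.52 and 9.64 in HT29. The changes were -1.76 (SE 0.098, 3.38-fold) in WiDr and -1.13 (SE 0.098) in HT29. PLK3 read 6.71, 6.95 and 6.85 and 5.41, 5.27 and 5.23 in WiDr, and 6.26, 5.98 and 6.25 and 5.27, 5.13 and 5.11 in HT29, changes of -1.53 (SE 0.083) and -0.997 (SE 0.083). For both kinases no treated array reached a vehicle array of its line.

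With IKKα shRNA PLK2 read 12.04, 11.97 and 12.10, above control shRNA at 11.85, 11.75 and 11.64, a rise of 0.30 (adjusted p = 0.0258). The call was lost without control shRNA replicate 2 (adjusted p = 0.0575) or 3 (0.108) and without IKKα shRNA replicate 1 (0.0607) or 3 (0.0841). Its 3 other probe sets passed with 0.58 as the value with the smallest adjusted p. PLK3 differed by 0.14 (adjusted p = 0.212).

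BTG1, an antiproliferative protein that promotes removal of messenger RNA tails, rose with AZ628 and did so further in HT29. It read 10.82, 10.88 and 10.76 with vehicle and 11.67, 11.66 and 11.64 with AZ628 in WiDr. In HT29 it went from 11.05, 11.04 and 11.04 to 12.54, 12.54 and 12.61. The changes were 0.84 (SE 0.051) and 1.52 (SE 0.051), and 0.37 in WiDr without probe sets that can bind several transcripts, which left a probe set of low signal. With IKKα shRNA it differed by 0.14 (adjusted p = 0.0491), a call lost without any single array of these groups except IKKα shRNA replicate 1 (adjusted p from 0.0741 to 0.172). By probe sets that bind 1 transcript the value was -0.31 (adjusted p = 0.0851).

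SUSD6, a membrane protein also known as DRAGO that slows growth, rose in all 3 comparisons. It read 9.17, 9.21 and 9.17 with vehicle and 10.63, 10.47 and 10.47 with AZ628 in WiDr, and 8.79, 8.88 and 8.87 and 10.20, 10.18 and 10.16 in HT29. The rises were 1.34 (SE 0.057) and 1.33 (SE 0.057), 2.53-fold and 2.52-fold. With control shRNA it read 9.30, 9.33 and 9.43 and with IKKα shRNA 10.03, 10.11 and 10.09, a rise of 0.72 (SE 0.057, adjusted p = 1.73e-08). SERTAD1, a regulator of cyclin D-dependent kinase, rose in all 3 as well, by 0.93, 0.54 and 0.37.

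ZMAT3, a zinc finger protein that binds RNA, was among the largest falls with IKKα shRNA. It read 5.74, 5.73 and 5.80, below control shRNA at 6.66, 6.64 and 7.10, a change of -1.04 (SE 0.092, adjusted p = 7.43e-08). With AZ628 in WiDr it went from 6.75, 6.67 and 6.74 to 7.08, 7.14 and 7.07 and in HT29 from 7.75, 7.73 and 7.60 to 8.03, 7.88 and 7.96, rises of 0.38 and 0.27. In HT29 it did not pass when replicate 1 or 3 of AZ628 or 3 of vehicle was left out (adjusted p = 0.0987, 0.0578 and 0.107) or with arrays centred on their median (0.0998). The other ZMAT3 probe set, of low signal, passed in none of the 3: it gave 0.052, 0.25 and -0.20.

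The death receptors fell or did not pass with AZ628. FAS, the receptor of Fas ligand, read 6.67, 6.33 and 6.31 with vehicle and 5.32, 5.55 and 5.15 with AZ628 in WiDr, and 6.64, 6.63 and 6.64 and 5.13, 5.39 and 5.39 in HT29. Its changes were -1.10 (SE 0.12) and -1.33 (SE 0.12). Under IKKα shRNA it read 5.74, 5.71 and 5.95 against 6.64, 6.96 and 7.05, a change of -1.09 (SE 0.12, adjusted p = 1.48e-06), or -1.68 by its other probe set. FAS was the only gene of the 29 that fell at least 2-fold in all 3 comparisons.

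TNFRSF10B, the receptor DR5 of the death ligand TRAIL, fell with AZ628 in WiDr from 10.37, 10.40 and 10.33 to 9.70, 9.59 and 9.63, a change of -0.73 (SE 0.076). In HT29 it read 9.42, 9.73 and 9.61 with vehicle and 9.50, 9.26 and 9.37 with AZ628, groups that overlapped, and the change of -0.21 (adjusted p = 0.0303) was lost without AZ628 replicate 2 or 3 or vehicle replicate 2 or 3 (adjusted p = 0.149, 0.0682, 0.17 and 0.0791). In the IKKα shRNA group it read 10.88, 10.87 and 10.95 against 10.48, 10.53 and 10.37, a rise of 0.44 (adjusted p = 0.000166), which was lost without probe sets that can bind several transcripts (-0.036, adjusted p = 0.832). EDA2R, a receptor of ectodysplasin, had group means from 4.88 to 5.18, and its differences of -0.14, 0.0028 and -0.011 did not pass.

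The intracellular death genes held both the largest rise and the largest fall of the list with AZ628. TP53INP1, a nuclear stress protein that promotes death and autophagy, read 6.71, 6.98 and 6.93 with vehicle and 11.03, 11.07 and 11.09 with AZ628 in WiDr. In HT29 it went from 7.34, 7.50 and 7.74 to 11.16, 11.18 and 11.12. The rises were 4.19 (SE 0.11) and 3.62 (SE 0.11), 18.2-fold and 12.3-fold, and the treated arrays of both lines reached nearly the same signal. With IKKα shRNA it read 6.44, 6.93 and 6.63 and with control shRNA 6.70, 6.70 and 6.48, which overlapped (0.038, adjusted p = 0.84). The other TP53INP1 probe set changed by 0.09, 0.36 and 0.34 in the 3 comparisons, and the mean of both rose with AZ628 by 2.14 and 1.99.

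AEN, a nuclease of apoptosis that acts in the nucleus, went the other way. It read 9.23, 9.24 and 9.29 with vehicle and 6.85, 6.87 and 6.80 with AZ628 in WiDr, and 9.27, 9.17 and 9.18 and 7.06, 7.13 and 7.21 in HT29. The changes were -2.41 (SE 0.059, 5.32-fold) and -2.07 (SE 0.059, 4.2-fold). Under IKKα shRNA it read 9.35, 9.31 and 9.36 against 9.48, 9.43 and 9.28 (-0.055, adjusted p = 0.528).

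The core apoptosis genes changed by less. BAX, which opens the outer mitochondrial membrane, fell in all 3 comparisons, with changes of -0.25 in WiDr, -0.30 in HT29 and -0.38 with IKKα shRNA. With AZ628 the second probe set of BAX fell more (-0.64 and -0.73). With IKKα shRNA the mean of both sets did not pass (-0.14, adjusted p = 0.0984). In WiDr BAX did not pass when AZ628 replicate 1 or 3 or vehicle replicate 2 was left out (adjusted p = 0.0647, 0.072 and 0.0915), and in HT29 when vehicle replicate 1 was (0.0507). APAF1, the scaffold of the apoptosome, rose by 0.38 and 0.41 with AZ628, or by 0.12 and 0.16 (adjusted p = 0.277 and 0.152) as the mean of its probe sets. It differed by -0.20 with IKKα shRNA (adjusted p = 0.154, and 0.0462 without IKKα shRNA replicate 1). TRIAP1, a small protein that protects from apoptosis, fell with AZ628 (-0.30 and -0.38) and differed by -0.12 with IKKα shRNA (adjusted p = 0.0593, and 0.0289 with dim genes left out).

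PHLDA3, which keeps the kinase AKT from the membrane, read 7.62, 7.65 and 7.68 with vehicle and 8.41, 8.52 and 8.37 with AZ628 in WiDr, a rise of 0.78 (SE 0.08). In HT29 it read 7.64, 7.59 and 7.32 and 7.68, 7.84 and 7.79, a rise of 0.25 (adjusted p = 0.0149) that did not pass when AZ628 replicate 2 or vehicle replicate 3 was left out (adjusted p = 0.0638 and 0.109) or with arrays centred on their median (0.0722). In the IKKα shRNA group it differed by -0.026 (adjusted p = 0.843). CYFIP2, a partner of the actin-regulating WAVE complex, read 6.97, 6.78 and 6.66 and 7.39, 7.44 and 7.32 in WiDr, a rise of 0.58 (SE 0.085). In HT29 it read 8.21, 8.13 and 7.94 and 8.30, 8.18 and 8.27, groups that overlapped (0.16, adjusted p = 0.154, but 0.57 and 0.000709 by another probe set). With IKKα shRNA it fell from 7.18, 7.31 and 7.24 to 6.82, 6.76 and 6.57, a change of -0.53 (adjusted p = 7.75e-05), or -0.34 with its probe sets averaged.

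**Figure D2:**
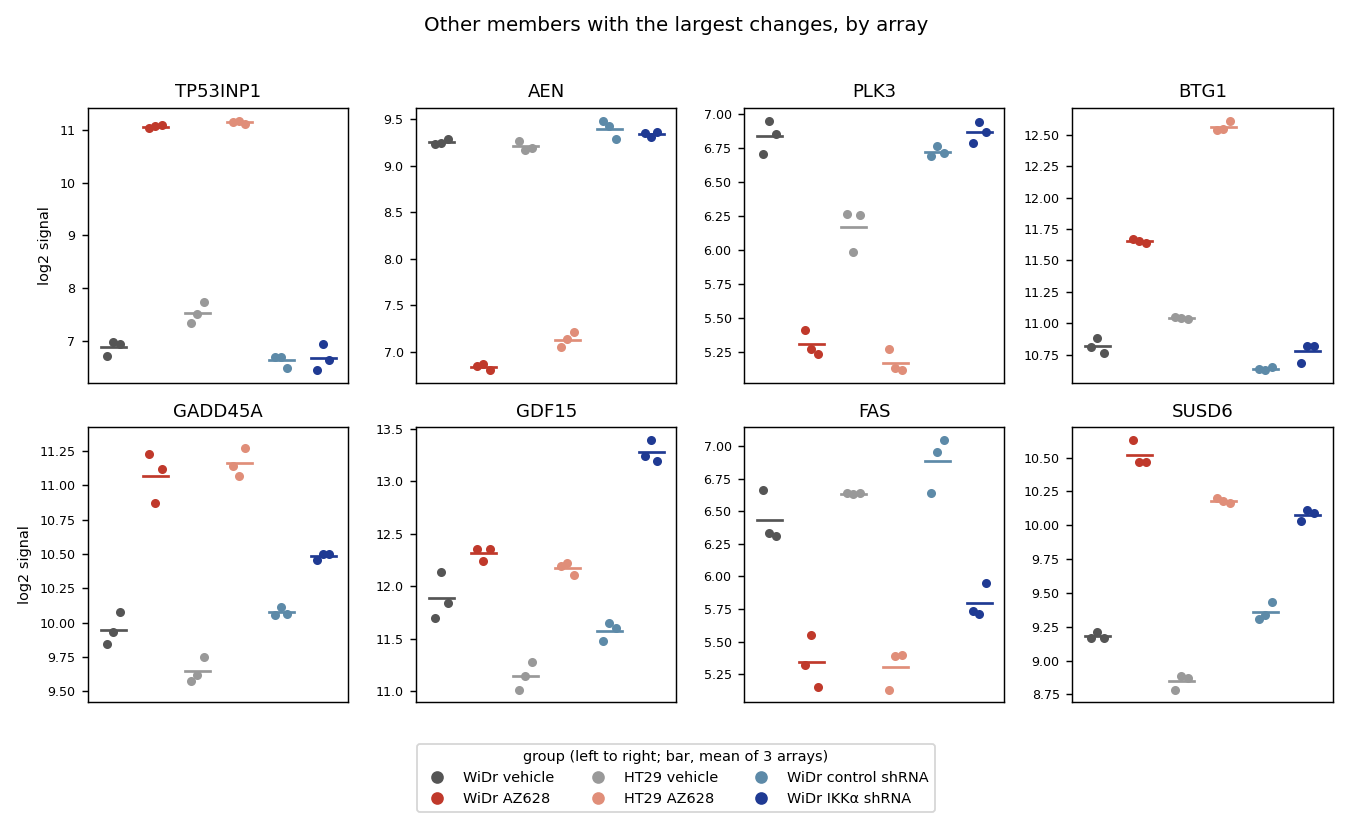
Log2 signal (vertical axis) on each of the 18 arrays for 8 p53 targets with large changes, in 6 groups from left to right as in the legend, with bars at group means. With AZ628 TP53INP1, BTG1, GADD45A and SUSD6 are higher and AEN, PLK3 and FAS lower in both lines without overlap, and GDF15 is highest with IKKα shRNA. The vertical axes differ between genes.

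Of the 5 measured metabolic genes, 3 rose with AZ628 in each line, and SPATA18 did not pass. SESN1, sestrin 1, which restrains mTORC1 and supports antioxidant defence, read 8.67, 8.64 and 8.58 with vehicle and 10.80, 10.77 and 10.76 with AZ628 in WiDr. In HT29 it went from 8.24, 8.25 and 8.40 to 10.77, 10.66 and 10.71. The rises were 2.15 (SE 0.064, 4.43-fold) and 2.42 (SE 0.064, 5.33-fold). Under IKKα shRNA it read 8.06, 7.90 and 7.99, below every control shRNA array (8.97, 8.83 and 8.77), a change of -0.87 (SE 0.064, adjusted p = 6.37e-09). The other SESN1 probe set passed in the same directions.

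TP53I3, a quinone oxidoreductase tied to oxidative stress, behaved likewise. It read 8.52, 8.33 and 8.35 and 9.71, 9.76 and 9.76 in WiDr, and 9.07, 9.09 and 9.12 and 10.49, 10.37 and 10.52 in HT29, rises of 1.34 (SE 0.067) and 1.37 (SE 0.067). In the IKKα shRNA group it went from 8.58, 8.53 and 8.36 to 7.84, 7.77 and 7.87, a change of -0.67 (SE 0.067, adjusted p = 3.63e-07).

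GDF15, a secreted stress hormone of the TGF-β family, rose in all 3 comparisons and most with IKKα shRNA. It read 11.47, 11.65 and 11.60 with control shRNA and 13.25, 13.40 and 13.20 with IKKα shRNA, a rise of 1.71 (SE 0.096, 3.27-fold, adjusted p = 2.28e-10), and these were the highest GDF15 signals of the series. With AZ628 in WiDr it went from 11.70, 12.13 and 11.84 to 12.36, 12.25 and 12.36, by 0.43 (adjusted p = 0.00112), and in HT29 from 11.02, 11.14 and 11.28 to 12.19, 12.22 and 12.11, by 1.03. SPATA18, a protein of mitochondrial quality control, had group means in a narrow range of low signals, 3.54 to 3.76, and passed in none of the 3 (0.14, 0.016 and 0.13).

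TIGAR, which lowers glycolysis through fructose bisphosphate, gave opposite answers by probe set. The brighter set fell with AZ628, with changes of -0.34 in WiDr (adjusted p = 0.0075, and 0.0573 without AZ628 replicate 3) and -0.41 in HT29. The other set rose, by 0.75 and 0.81, so that no direction can be given for the gene. With IKKα shRNA the brighter set differed by 0.089 (adjusted p = 0.527).

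**Figure D3:**
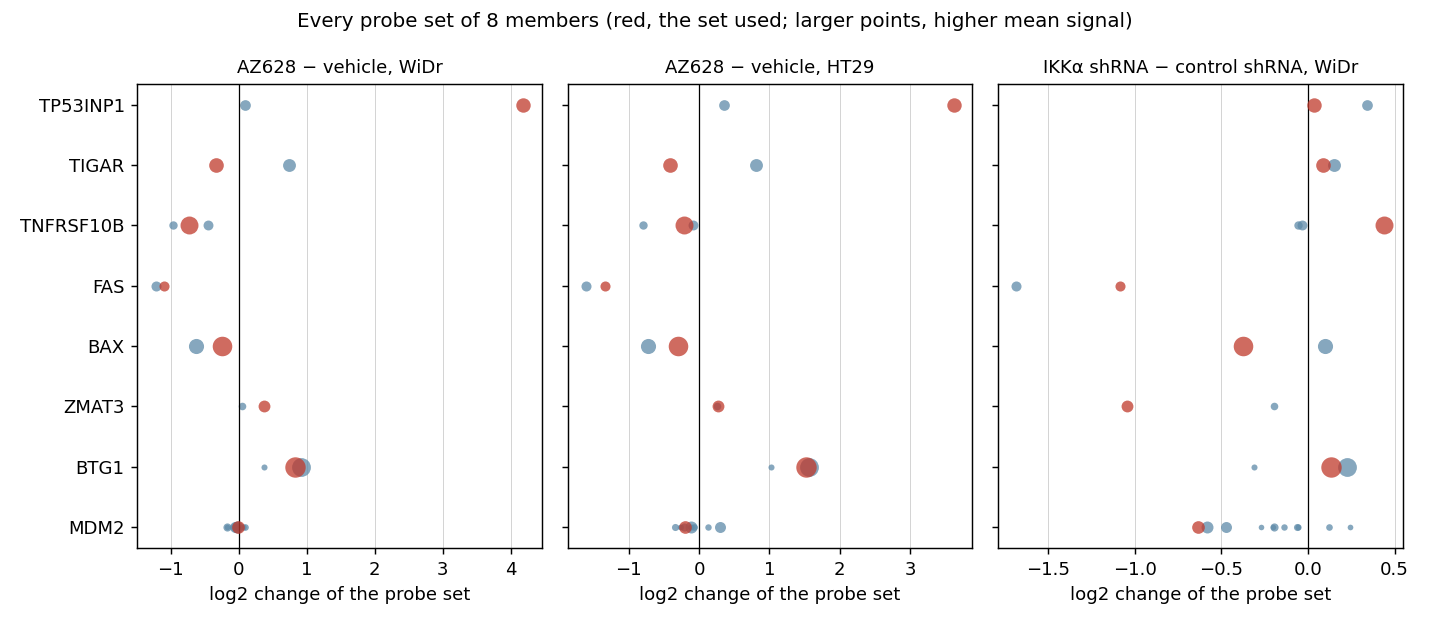
Log2 change (horizontal axis) of every probe set of 8 p53 targets in the 3 treatment comparisons, with the probe set used in red and larger points for a higher mean signal. The TIGAR sets lie on both sides of 0 with AZ628, and only 1 of the 2 TP53INP1 sets moves far from 0. The horizontal axes differ in scale.

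The AZ628 responses of the lines were compared by the difference of the changes, HT29 minus WiDr. Of the 29 genes 15 rose in both lines, 9 fell in both and 0 went opposite ways, where 18.4%, 17% and 0.502% of all genes did, while CYFIP2 rose in WiDr alone by this threshold. TIGAR is among the 9 by its brighter probe set alone. In the test of the difference 6 of the 29 passed above 0 and 5 below, against 4.06% and 5.13% of all genes. None of the 11 differences reached 2-fold, as 0.965% of all genes did. BTG1 rose further in HT29 by 0.69 (SE 0.073, adjusted p = 8.03e-06), as did GDF15 by 0.60 (adjusted p = 0.00876). PLK2, PLK3, TNFRSF10B and AEN fell less in HT29, with differences of 0.62, 0.54, 0.52 and 0.34 (adjusted p = 0.0073, 0.00661, 0.00465 and 0.0146).

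Of these, PLK2, PLK3, TNFRSF10B and GDF15 started from lower vehicle signals in HT29, with differences from WiDr of -1.35, -0.67, -0.78 and -0.74. With AZ628 the PLK3 group means were low in both lines, 5.30 in WiDr and 5.17 in HT29, and differences of low signals are compressed. The part of this in the PLK3 difference was not tested. BTG1 started 0.22 higher there, and the vehicle difference of AEN did not pass (-0.047, adjusted p = 0.636). Smaller rises in HT29 were seen for PHLDA3, with a difference of -0.53 (adjusted p = 0.0056), RRM2B with -0.41 (0.00422), CYFIP2 with -0.42 (0.0367), SERTAD1 with -0.39 (0.029) and TP53INP1 with -0.57 (0.0347). TP53INP1 started 0.65 higher in HT29 and CYFIP2 1.29 higher. The TP53INP1 call was lost in 10 of the 12 fits without 1 array (adjusted p from 0.0519 to 0.0925), all but those without WiDr vehicle replicate 2 or HT29 vehicle replicate 1. The CYFIP2 call was lost in 9 (0.0516 to 0.105), all but those without WiDr AZ628 replicate 3, WiDr vehicle replicate 1 or HT29 vehicle replicate 3. The SERTAD1 call was lost in 7 (0.0598 to 0.0807), without replicate 1 or 2 of WiDr AZ628, 1 or 3 of WiDr vehicle, 1 or 3 of HT29 AZ628 or 1 of HT29 vehicle. With quantile normalization again none of these 3 passed (adjusted p = 0.0511, 0.0646 and 0.068), and with probe sets averaged TP53INP1 was -0.15 (adjusted p = 0.582). For RRM2B the mean of its probe sets did not pass (-0.22, adjusted p = 0.0935) nor did TNFRSF10B without probe sets that can bind several transcripts (0.37, adjusted p = 0.14). The difference for GADD45A was 0.39 and did not pass (adjusted p = 0.0502, and under the threshold in 6 other settings, such as 0.0326 with quantile normalization again).

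**Figure D4:**
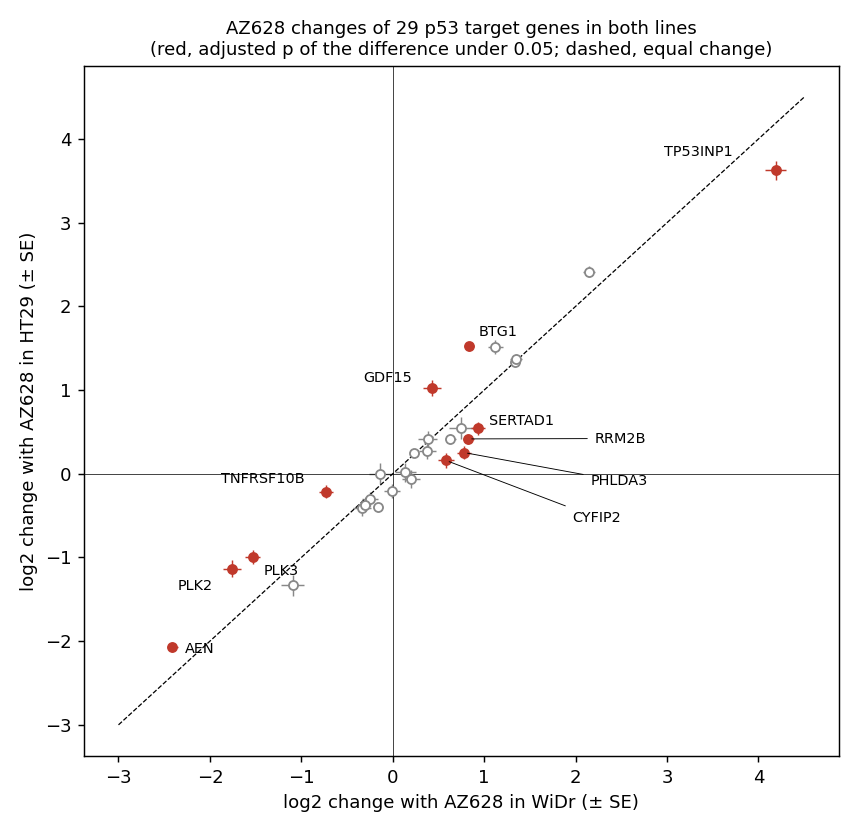
Log2 change with AZ628 in HT29 (vertical axis) against WiDr (horizontal axis) for the 29 genes, ± SE, with a dashed line of equal change. Red points passed the test of the difference. BTG1 and GDF15 lie above the line, TP53INP1 below it, and no red point lies on opposite sides of 0 on the axes.

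AZ628 and IKKα shRNA moved part of the list in opposite directions in WiDr. The comparisons share no arrays. Of the 29 genes 9 passed in opposite directions (31%, against 11.9% of all genes), 5 rose in both (17.2%, against 5.8%) and 3 fell in both (10.3%, against 6.59%). PPM1D, CCNG1, RRM2B, ZMAT3, CYFIP2, SESN1 and TP53I3 rose with AZ628 and fell with IKKα shRNA, and PLK2 and TNFRSF10B did the reverse. The limits given above hold for ZMAT3, RRM2B, PLK2 and TNFRSF10B. When IKKα shRNA was set against vehicle, CCNG1, CYFIP2 and PLK2 did not pass, as given below. The difference of the effects, IKKα shRNA minus AZ628, passed for all 9. Over the 29 genes it passed above 0 for 7 and below 0 for 16 (20.1% and 22.3% of all genes), and it reached 2-fold for 13 (12% of all genes). It was -3.02 for SESN1 (SE 0.09, adjusted p = 3.92e-14), -2.01 for TP53I3, -1.42 for RRM2B, -1.42 for ZMAT3, -1.39 for PPM1D, -1.32 for CCNG1, -1.11 for CYFIP2, 2.05 for PLK2 and 1.17 for TNFRSF10B. Without probe sets that can bind several transcripts that of ZMAT3 was -0.25 (adjusted p = 0.363).

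The 5 genes that rose in both were GADD45A, BTG1, SERTAD1, SUSD6 and GDF15, and the 3 that fell in both were DDB2, FAS and BAX. GDF15 rose more with IKKα shRNA, by 1.28 (adjusted p = 4.38e-07), while SUSD6 (-0.62), GADD45A (-0.71), BTG1 (-0.70) and SERTAD1 (-0.56) rose less. FAS differed by 0.0097 (adjusted p = 0.975), or -0.46 by its other probe set (adjusted p = 0.0207), and DDB2 by -0.15 (adjusted p = 0.133). The large AZ628 movers TP53INP1 and AEN did not pass with IKKα shRNA, and the differences of the effects were -4.15 and 2.36 (adjusted p = 1.16e-12 and 3.93e-13).

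**Figure D5:**
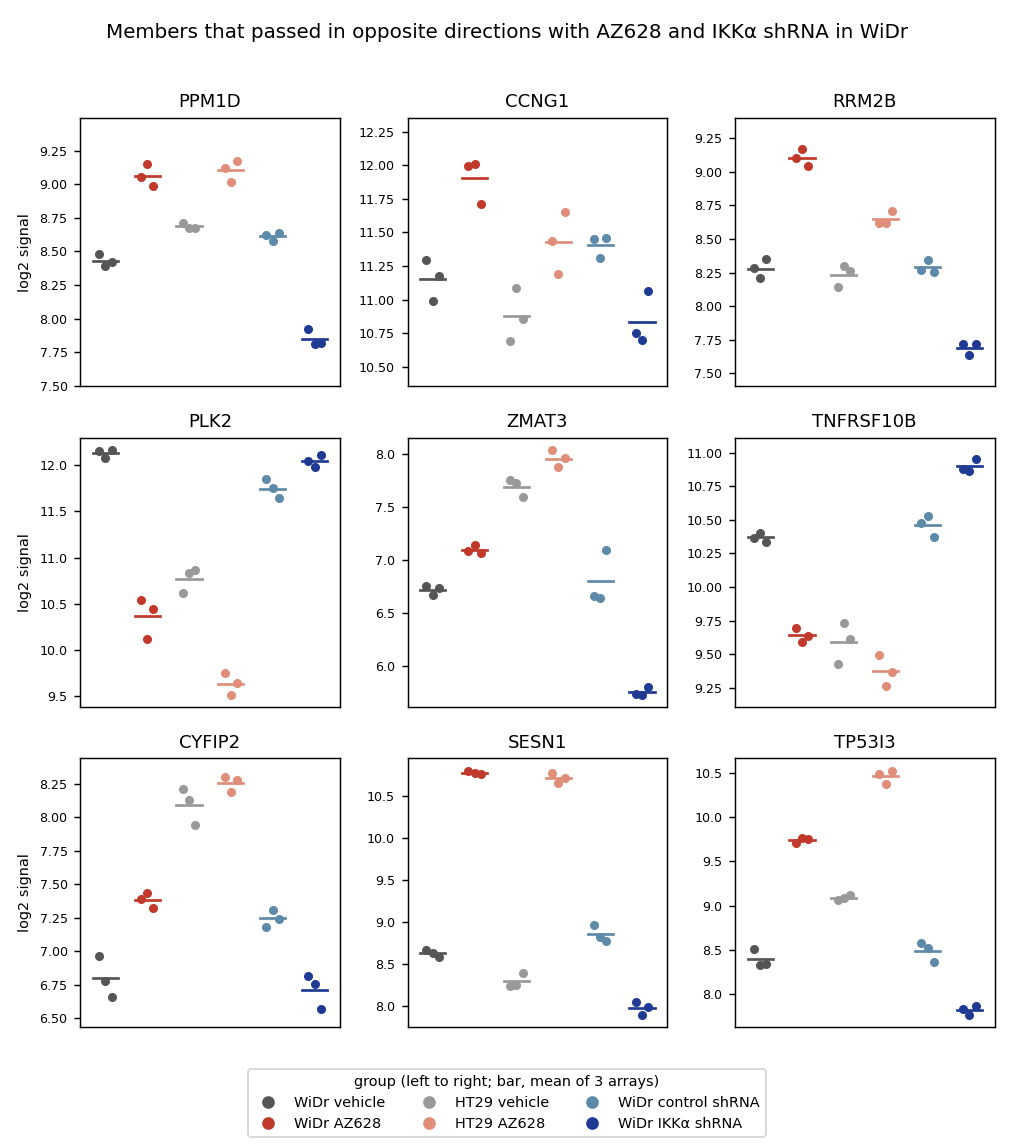
Log2 signal (vertical axis) on each array for the 9 p53 targets that passed in opposite directions with AZ628 and IKKα shRNA in WiDr, in 6 groups from left to right as in the legend, with bars at group means. For PPM1D, RRM2B, ZMAT3, SESN1 and TP53I3 the IKKα shRNA arrays are the lowest of the series. The vertical axes differ between genes.

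The control shRNA arrays were set against vehicle, since the shRNA comparison rests on them. Of the 29 genes 7 were higher and 4 lower with control shRNA, where 11.6% and 10.6% of all genes were, and no change reached 2-fold (0.392% of all genes). FAS was 0.45 higher, CYFIP2 0.44 and SESN1 0.23 higher, and PLK2 (-0.38) and GDF15 (-0.32) were lower. Leaving out 1 array gave 2 to 8 calls in place of 11, with 2 without vehicle replicate 2, 3 without vehicle replicate 3, 4 without control shRNA replicate 2 and 5 each without replicate 1 or 3 of control shRNA.

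Against vehicle in place of control shRNA, which is a comparison with the same IKKα shRNA arrays and so not independent, there were 4 genes higher and 9 lower (16.4% and 19.8% of all genes), 1 of them by at least 2-fold (2.84% of all genes). ZMAT3 was then -0.96, SESN1 -0.65, FAS -0.64, MDM2 -0.61, RRM2B -0.59, PPM1D -0.58 and TP53I3 -0.57, all of which passed. The probe set limits given above for ZMAT3 and RRM2B hold here too. GDF15 was 1.39, SUSD6 0.89, GADD45A 0.54 and TNFRSF10B 0.53, which passed as well. CYFIP2 (-0.087, adjusted p = 0.467), PLK2 (-0.086, adjusted p = 0.536), CCNG1 (-0.32, adjusted p = 0.0688), BTG1 (-0.045, adjusted p = 0.534) and SERTAD1 (0.12, adjusted p = 0.223) did not pass against vehicle. CCNG1 passed there without vehicle replicate 2 (-0.40, adjusted p = 0.0432) or IKKα shRNA replicate 3 (-0.43, adjusted p = 0.024).

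With vehicle the lines differed in 8 genes that were higher and 10 that were lower in HT29 (16.9% and 15.3% of all genes). CYFIP2 (1.29), ZMAT3 (0.97), TP53I3 (0.69), TP53INP1 (0.65) and TIGAR (0.54) were the most raised in HT29. PLK2 (-1.35), TNFRSF10B (-0.78), GDF15 (-0.74) and PLK3 (-0.67) were the most lowered. CYFIP2 and PLK2 were the ones that differed at least 2-fold, as 2.69% of all genes did. The vehicle arrays of this comparison are also the controls of the AZ628 comparisons.

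Other genes of the pathway were taken from a list of regulators and partners of p53, 21 of them measured, and a list of other targets, 30 measured. With AZ628 in WiDr 5 regulators rose and 6 fell, in HT29 5 and 6, and with IKKα shRNA 4 and 7. These were 23.8% and 28.6% of the list in WiDr with AZ628, where 23.4% and 21.1% of all genes rose and fell, 23.8% and 28.6% in HT29 (all genes 22.5% and 21%) and 19% and 33.3% with IKKα shRNA (all genes 15.9% and 19%). CHEK1, the checkpoint kinase of replication stress, fell in all 3 (-1.17, -1.34 and -0.63). HIPK2, a kinase that phosphorylates p53, fell too (-0.57, -0.42 and -1.05), although it did not pass in HT29 when AZ628 replicate 3 was left out (adjusted p = 0.0637). MDM4, the partner of MDM2, differed by -0.16, 0.19 and -0.0097 and passed in none of them (adjusted p = 0.32, 0.242 and 0.964). In HT29 the mean of its probe sets passed (0.24, adjusted p = 0.00323), as did the gene without vehicle replicate 2 (adjusted p = 0.0459). TP73, a relative of p53, changed by -0.23 and -0.26 with AZ628. Those calls were lost without AZ628 replicate 1 or 2 or vehicle replicate 2 in WiDr (adjusted p = 0.053, 0.0504 and 0.105) and without vehicle replicate 1 in HT29 (0.068). TP73 differed by -0.067 with IKKα shRNA (adjusted p = 0.548).

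Of the other targets 10 rose and 9 fell with AZ628 in WiDr, 11 and 8 in HT29, and 11 and 7 with IKKα shRNA. As shares of the list these were 33.3% and 30%, 36.7% and 26.7%, and 36.7% and 23.3%, against the same shares of all genes as for the regulators. CDKN1A, the p21 inhibitor of cell cycle kinases, read 7.84, 8.35 and 8.10 with vehicle and 8.26, 8.13 and 8.32 with AZ628 in WiDr (0.14, adjusted p = 0.336, and 0.0366 without vehicle replicate 2). In HT29 it went from 8.04, 8.09 and 7.86 to 8.86, 8.94 and 8.97, a rise of 0.92 (SE 0.11), and the difference between the lines was 0.79 (adjusted p = 0.00221). With IKKα shRNA it fell from 8.11, 8.12 and 8.07 to 7.32, 7.63 and 7.52, a change of -0.61 (adjusted p = 0.000164). CDKN1A was thus 1 of the 7 other targets that fell with IKKα shRNA, where 11 rose, and its AZ628 rise passed in HT29 only.

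TNFRSF10A, the receptor DR4 of TRAIL, fell with AZ628 (-2.52 and -2.23) and differed by 0.056 with IKKα shRNA (adjusted p = 0.708). BBC3, which encodes the BCL2 antagonist PUMA, rose by 1.23 and 0.69 with AZ628, whereas PMAIP1, which encodes the related protein NOXA, fell (-1.54 and -0.73). With IKKα shRNA PMAIP1 rose by 0.68, and BBC3 by 0.15 (adjusted p = 0.0497), a call lost in each of the 6 fits that left out an array of these groups (adjusted p from 0.0513 to 0.144). SESN2, the sestrin also induced by amino acid shortage, rose by 0.42 and 0.65 with AZ628 and by 1.51 with IKKα shRNA, where the change of SESN1 was -0.87. SFN, the 14-3-3 protein of arrest before mitosis, fell in all 3 (-1.37, -0.96 and -0.78). THBS1, thrombospondin 1, rose in WiDr and fell in HT29 with AZ628 (0.47 and -1.60, difference -2.07, adjusted p = 9.08e-08) and rose with IKKα shRNA (1.36). NOTCH1 rose by 0.45 and 1.20 with AZ628, the former lost with probe sets averaged (adjusted p = 0.0973), and fell (-0.46) with IKKα shRNA.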

How the data were processed

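Total RNA of 18 cell line samples was hybridised to Affymetrix arrays after whole-transcript sense labelling, per the labels' protocols. The authors deposited 1 table of log2 values, and the submitters' processing notes name RMA, limma and R 3.0.2. RMA corrects background, equalises the arrays' distributions and summarises probes, so values are relative, differences of low signals are compressed and a shift of most genes is removed. How the authors set its options is not given in the sources used here. Arrays have no read depth, and their number limits the precision.

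Of 49395 probe sets, 44994 had 1 gene symbol in the platform annotation, 1832 several and 2569 none. The brightest probe set with 1 symbol stood for each of 18132 genes. A 6-group model was fitted to all arrays with limma 3.58.1 in R 4.3.3 (12 residual degrees of freedom), with p-values adjusted by Benjamini-Hochberg over all genes within each of 8 contrasts, and an adjusted p under 0.05 was called. No filter on dim genes was used. The procedure was tested on simulated data.

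The genes, role groups, pathway lists and markers were chosen with earlier results of these data known. Values on every array were given for genes among the 6 largest called changes of a treatment comparison, for those called in opposite directions and for those with a called difference between lines of at least 0.5. Other pathway genes were named where called with a change of at least 1 (log2), beside CDKN1A, MDM4 and TP73. DDB2, MDM2, SERTAD1 and other genes of the list were given with values as well, and half-site stretches of single half-sites were added after the search. The numbers in the sample titles did not pair the arrays across groups. Alternatives were other probe set choices, a filter on the dimmest 30% of genes, other scalings, the replicate block, the compared arrays alone, other eBayes settings, a 2-fold minimum and leaving out each array.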

Additional observations from a re-analysis of the deposited data

Results flagged for a closer look

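The AZ628 effect differed between HT29 and WiDr, by the limma test of the difference over all genes, for 11 of the 29 measured p53 targets, 6 above 0 and 5 below, where 4.06% and 5.13% of all genes passed. The differences, HT29 minus WiDr, were 0.69 for BTG1 (adjusted p = 8.03e-06), 0.62 for PLK2 (0.0073), 0.60 for GDF15 (0.00876), 0.54 for PLK3 (0.00661), 0.52 for TNFRSF10B (0.00465) and 0.34 for AEN (0.0146). They were -0.39 for SERTAD1 (adjusted p = 0.029), -0.41 for RRM2B (0.00422), -0.42 for CYFIP2 (0.0367), -0.53 for PHLDA3 (0.0056) and -0.57 for TP53INP1 (0.0347). Leaving out 1 array at a time, the call was lost in 10 of 12 fits for TP53INP1, 9 for CYFIP2 and 7 for SERTAD1. The point values of the AZ628 change had the same sign in both lines for each of these genes. With 3 arrays a group, no sample was tested for standing apart from its group.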

How the results depend on the processing

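The number of arrays and, for dim probe sets, the signal over background limit these results. Requiring a 2-fold change left 9 called genes with AZ628 in WiDr, 10 in HT29, 3 with IKKα shRNA, 0 in the difference between lines, 13 in the difference of the effects, 2 between the lines with vehicle, 0 with control shRNA and 1 for IKKα shRNA against vehicle, in place of 25, 24, 18, 11, 23, 18, 11 and 13. Leaving out 1 array gave, in the same order, 23 to 25, 21 to 23, 16 to 18, 8 to 12, 22 to 23, 16 to 17, 2 to 8 and 11 to 14. The control shRNA count was also 7 with every probe set as its own entry, 6 of 28 without probe sets that can bind several transcripts, 6 with quantile normalization again and 4 with the compared arrays alone. The other counts under these settings lay within 1.5 times the reported ones.

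Among values that passed in either fit, signs turned under 3 settings, all choices of probe set. With probe sets averaged TIGAR changed by 0.20 in WiDr and 0.20 in HT29, its difference of the effects was -0.086 and that of BAX 0.30. By the probe set with the smallest adjusted p the TIGAR values were 0.75, 0.81 and -0.60, the difference of the effects was 0.73 for BAX and -0.46 for FAS, and against vehicle IKKα shRNA gave 0.67 for PLK2 and 0.36 for CYFIP2. Without probe sets that can bind several transcripts IKKα shRNA gave -0.31 for BTG1 and -0.036 for TNFRSF10B. Under this setting FAS differed between the effects by -0.46, and BTG1 between the lines with vehicle by -0.079. The cause was not tested. Fits with the replicate block gave 273 of 280 gene values on the same side of the threshold, 6 that lost and 1 that gained a call, and 25 called genes with AZ628 in WiDr. Arrays with the same number correlated at 0.178, -0.0677 and 0.023 in deviations from their group means in WiDr with AZ628 against vehicle. These values were -0.056, -0.233 and -0.102 in HT29, and 0.0412, 0.0685 and 0.0885 with IKKα shRNA against control shRNA. The numbers were not taken to pair the arrays, though 3 arrays a group cannot exclude a pairing. Centring each array on its median moved the median of all genes by more than 0.1 in the difference of the effects alone, from 0.0359 to 0.141.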
